A study of Mus musculus with 3 samples.

Results

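GDNF-RET signalling is the growth factor pathway that drives the ureteric bud to grow out and branch in the developing kidney, and 10 of its genes were described here in mouse kidneys of 2 embryonic ages. The genes were a ligand (Gdnf), its receptor subunits and a related co-receptor (Ret, Gfra1, Gfra3), and genes known as targets or feedback inhibitors of the signal (Wnt11, Etv4, Etv5, Spry1, Spry2, Dusp6). They were chosen by name: an array feature (a spotted oligonucleotide) was taken where the platform annotation gave exactly 1 symbol equal to a listed gene and the feature had a value on all 3 arrays. All 10 genes had such a feature, among 19015 measured rows in all (14433 of them named genes), a row being a gene or an unnamed feature.

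Both ages were hybridised on each of 3 two-colour arrays (Compugen mouse oligonucleotides), 11.5 days post coitum (dpc) metanephroi in channel 1 and 13.5 dpc fetal kidney in channel 2. Both came from normal CD1 mice by microdissection, as pools of both sexes; no allele or treatment is named in the labels. The values are log2 ratios of both channels, read as 11.5 over 13.5 dpc. That direction is likely, because the labels pair this order of ages with channel 1 and with the dye order red/green, but it is not settled, and every sign below turns if it is wrong. Array 3 has the opposite dye order to arrays 1 and 2, and across rows it correlated weakly with them (Pearson r = 0.12 with array 1 and -0.12 with array 2, against 0.27 between arrays 1 and 2). Ratios past 2-fold in the same direction throughout were found for 130 rows with array 3 as deposited, and 42 with its sign turned. A shared sign of any size was found for 35.3% and 29.2% of rows. Large ratios thus matched array 3 more often as deposited, and the orientation was not tested further. Array 3 was used as deposited, and each member's mean and each list's median is also given with the sign of array 3 turned. Arrays 1, 2 and 3 had standard deviations of 0.56, 0.75 and 0.93 over all rows. A ratio gives no level, so neither the labelled tissue nor the presence of a gene could be checked against its markers, and levels of different genes were not compared.

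In the kidney rudiment, GDNF is secreted by the metanephric mesenchyme and binds the co-receptor GFRA1, and the complex activates the receptor tyrosine kinase RET on the cells of the ureteric bud tip. RET signals through the RAS-ERK and PI3K cascades and maintains the ETS transcription factors ETV4 and ETV5, and Wnt11 is a bud tip gene that depends on the signal and in turn supports Gdnf in the mesenchyme. SPRY1, SPRY2 and the ERK phosphatase DUSP6 are induced by receptor tyrosine kinase signalling and damp it. GFRA3 belongs to the same co-receptor family but prefers the ligand artemin, and is best known from the peripheral nervous system.

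Sequence upstream of the start site is shown for 3 members: Wnt11 and Dusp6, whose ratios lay closest to each other within the set, and Spry1, the feedback inhibitor with 1 sign on every array. The sequences are the 250 bases before a RefSeq start site (GRCm38.p6), 5′ to 3′ on the gene's strand. Capitals mark matches to CCGGAA or to AGGAAG, known as an ETS core and a PEA3 site, on either strand (TTCCGG and CTTCCT on the other).
Wnt11, chr7:98838595-98838844, plus strand: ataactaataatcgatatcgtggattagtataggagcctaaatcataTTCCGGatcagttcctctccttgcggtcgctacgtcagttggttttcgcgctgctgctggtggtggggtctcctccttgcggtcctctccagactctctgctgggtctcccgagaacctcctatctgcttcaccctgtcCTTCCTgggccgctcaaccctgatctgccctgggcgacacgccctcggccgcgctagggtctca
Dusp6, chr10:99262981-99263230, plus strand: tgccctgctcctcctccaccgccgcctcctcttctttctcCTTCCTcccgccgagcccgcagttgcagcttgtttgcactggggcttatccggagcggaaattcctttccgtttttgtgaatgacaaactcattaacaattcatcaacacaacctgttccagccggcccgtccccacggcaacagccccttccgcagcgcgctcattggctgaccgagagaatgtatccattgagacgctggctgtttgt
Spry1, chr3:37639697-37639946, plus strand: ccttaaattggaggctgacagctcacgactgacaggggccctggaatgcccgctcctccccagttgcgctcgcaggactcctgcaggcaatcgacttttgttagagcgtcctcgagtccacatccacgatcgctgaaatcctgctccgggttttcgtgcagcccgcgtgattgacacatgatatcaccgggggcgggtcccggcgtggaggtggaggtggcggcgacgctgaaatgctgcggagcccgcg
The Wnt11 window, before the downstream of 2 listed start sites, held CCGGAA on the minus strand at -203 and AGGAAG on the minus strand at -64, counted from the start site to the first base of the match. The window before the other Wnt11 start site held neither. The Dusp6 window held AGGAAG on the minus strand at -210, and the Spry1 window held neither. Of 10 windows listed for 7 members, 4 held either motif, against 38.2% of 32851 windows of the same length in the table (12.0% for CCGGAA and 29.5% for AGGAAG). The share in the windows of these 7 members was thus near that of all windows. No window was listed for Ret, Gfra3 or Etv4, which include the highest and lowest means of the set.

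Gfra3 stood apart from the rest of the set. It was the 1 member at least 2-fold on every array, higher at 11.5 dpc, while 0.684% of all rows met that rule in either direction (0.247% in the higher one). The other 9 had mean log2 ratios between -0.78 (Etv4) and 0.30 (Ret). In limma's test of the mean ratio against 0 (two-sided, Benjamini-Hochberg adjusted over all 19015 rows), 0 of the 10 passed an adjusted p of 0.05, as did 0% of all rows. At an unadjusted limma p under 0.05 there were 2, Gfra3 (higher) and Etv4 (lower), against 9.24% of all rows (4.17% higher, 5.07% lower). Such counts in whole-organ RNA cannot tell fewer cells of a type from less RNA per cell. The labels do not say whether different RNA preparations were used for the 3 arrays, so p-values here describe the spread between arrays and that spread may be technical.

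**Figure D1:**
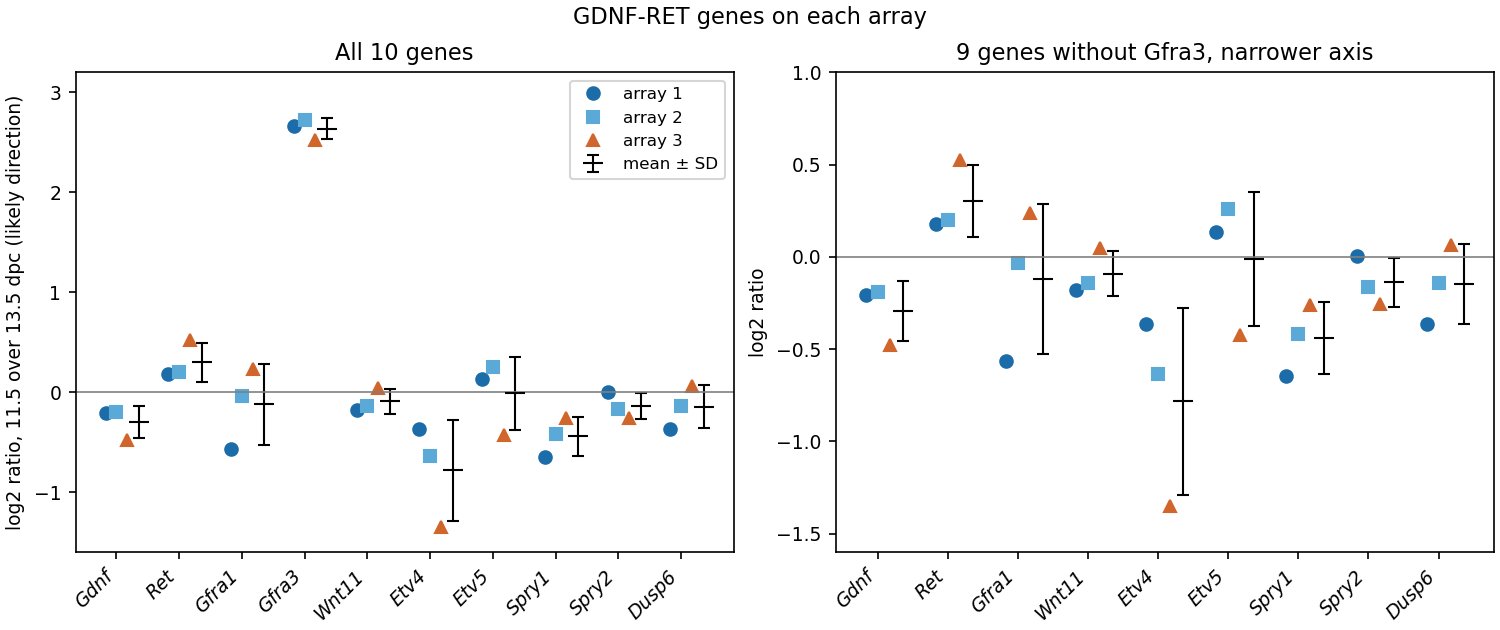
Log2 ratio of each of the 10 genes on arrays 1, 2 and 3 (coloured symbols), with the mean and SD over 3 arrays in black; the right panel repeats the 9 genes other than Gfra3 on a narrower axis. Gfra3 lies between 2.52 and 2.72 on every array, while the other means lie between -0.78 and 0.30.

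Of the 10 members 5 had 1 sign on every array, against 35.3% of all rows: Ret and Gfra3 were positive and Gdnf, Etv4 and Spry1 negative. Arrays 1 and 2, which share a dye order, had the same sign for 9 of the 10, Spry2 being the exception, against 64.5% of all rows. With array 3 turned, 4 members had 1 sign on every array, against 29.2% of all rows. By mean, 8 members lay below 0 and 2 above, against 50.9% of all rows below 0, and the median of the members was -0.13, with -0.0084 over all rows. For 4 members (Gfra1, Wnt11, Etv5 and Dusp6) the SD over arrays was larger than the mean itself.

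The ligand gene Gdnf (Entrez 14573) had log2 ratios of -0.21, -0.19 and -0.48 on arrays 1, 2 and 3. All 3 were below 0, with array 3 the lowest. The mean was -0.29 ± 0.16 (SD, n = 3 arrays), a 1.23-fold difference with a 95% confidence interval of the log2 ratio from -0.73 to 0.14 (limma adjusted p = 0.61). The mean was 0.026 with array 3 turned, and -0.13 with a running median over neighbouring features of the library taken off.

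The receptor gene Ret (Entrez 19713) had 0.18, 0.20 and 0.53 on the same arrays. All 3 were above 0, opposite to Gdnf, and array 3 was again the farthest from 0. The mean was 0.30 ± 0.20, with a confidence interval from -0.15 to 0.75 (limma adjusted p = 0.613). It was 0.19 without array 3, and -0.050 with array 3 turned. Subtracting Ret from Gdnf within each array removes any shift that the genes of 1 array share, and gave -0.39, -0.39 and -1.01, a mean difference of -0.59 ± 0.36.

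The co-receptor gene Gfra1 (Entrez 14585) had -0.56, -0.034 and 0.24, so the arrays spread on both sides of 0. Its mean of -0.12 ± 0.41 was smaller than its SD (confidence interval from -0.72 to 0.48, limma adjusted p = 0.859). The mean was 0.10 without array 1, -0.30 without array 3 and -0.28 with array 3 turned. Against Ret it was lower on each array, by differences of -0.74, -0.23 and -0.29 (mean -0.42 ± 0.28).

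Gfra3 (Entrez 14587) had 2.66, 2.72 and 2.52, a range of 0.21 between its highest and lowest array. The mean of 2.63 ± 0.11 (SE 0.15) is a 6.21-fold ratio, with a confidence interval from 2.22 to 3.05. Only 4 of the 19015 rows had a higher mean, and its limma p of 5.55e-05 was the 4th smallest, with an adjusted p of 0.197. The tight agreement holds for array 3 as deposited: with array 3 turned the arrays no longer share a sign and the mean was 0.96. Over the other alternatives it stayed between 2.59 (without array 2) and 3.04 (quantile normalisation), with limma adjusted p from 0.133 to 0.951. Gfra3 minus Gfra1 was 3.22, 2.76 and 2.28 on the 3 arrays (mean 2.75 ± 0.47), and Gfra3 minus Ret was 2.48, 2.53 and 1.99 (mean 2.33 ± 0.30).

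The other GDNF family genes had ratios well below that of Gfra3. Of 8 listed, 6 were measured, with a median log2 ratio of -0.22 (0.085 with array 3 turned). Of these 1 had 1 sign on every array, against 35.3% of all rows. That gene was Nrtn, which encodes the ligand neurturin, with 0.64, 0.49 and 0.42 (mean 0.52 ± 0.11, limma adjusted p = 0.516). Artn, which encodes artemin, the ligand that GFRA3 prefers, had -1.40, 0.63 and -0.66, with signs that differed between arrays 1 and 2. The persephin gene Pspn had a mean of -0.25 ± 0.44. The co-receptor genes Gfra2 and Gfra4 had -0.24 ± 0.56 and 0.036 ± 0.36, and Ncam1, an alternative GDNF receptor, had -0.19 ± 0.23. Each of these means other than that of Nrtn was smaller than its SD.

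Among genes of other cell types, most of those of red blood cells had the sign of Gfra3. Of 12 measured erythroid markers 9 were positive and 0 negative on every array, against 16.8% and 18.5% of all rows, with per-array medians of 0.57, 1.32 and 1.02. The median of their means was 1.09, and 0.34 with array 3 turned. Their means ran from -0.73 (Gata1) to 4.07 (Hbb-bh1). The 3 with mixed signs were Gata1 (-1.54, -0.72 and 0.059), Slc4a1 (-0.70, -0.34 and 0.091) and Epor (-0.14, 0.19 and 0.27). Of 16 measured markers of neural crest, neurons and glia, the cells in which Gfra3 is best known, 2 were positive and 8 negative on every array, with per-array medians of -0.27, -0.23 and -0.29. The median of their means was -0.25, and -0.14 with array 3 turned. Their means ran from -1.10 (Uchl1) to 0.94 (Gap43), so the list was split. At an unadjusted limma p under 0.05, 2 were higher, against 4.17% of all rows, and 3 lower, against 5.07%. The higher genes were Gap43 (1.10, 1.12 and 0.60) and Stmn2 (1.07, 0.94 and 0.52), and the lower ones Uchl1, Hand2 and Th. The part of either cell type in the Gfra3 result was not tested. The 3 named genes nearest to Gfra3 over the arrays, by Euclidean distance of their log2 ratios, were the carbonic anhydrase gene Car2 (distance 0.21), the transporter gene Slc22a16 (0.44) and Art5 (0.49). All named rows, Car2 included, lay more than 0.2 from Gfra3.

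**Figure D2:**
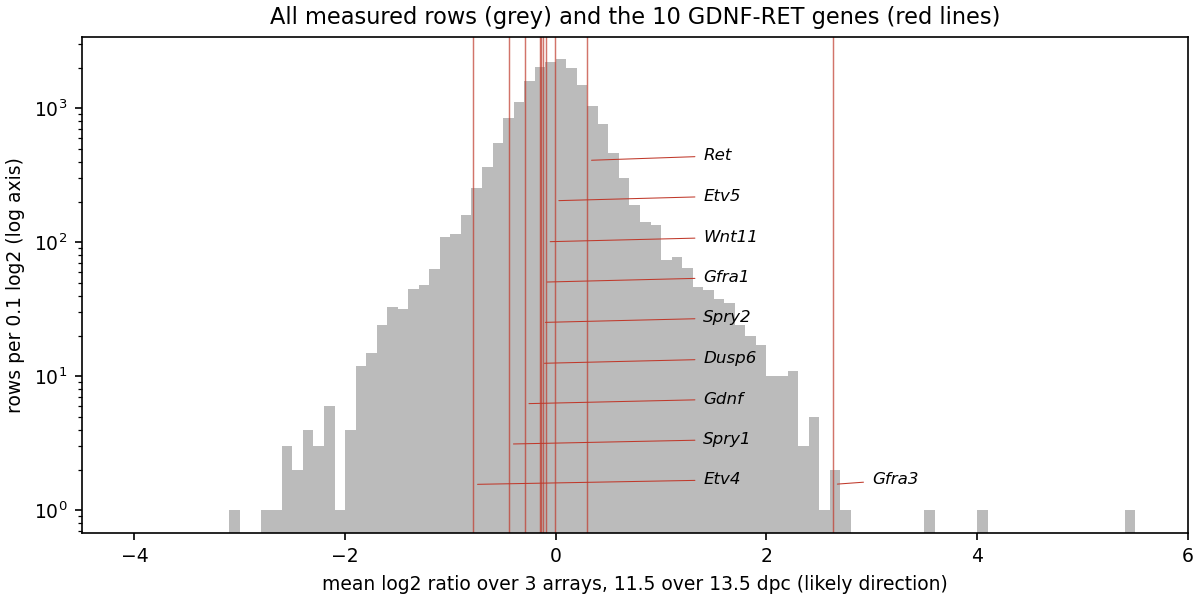
Histogram of the mean log2 ratio over 3 arrays for all 19015 rows (grey, counts on a log axis), with a red line at the mean of each of the 10 genes. Gfra3 lies at 2.63 with 4 rows above it, and the other 9 lie within the bulk of rows between -0.78 and 0.30.

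Wnt11 (Entrez 22411), the bud tip ligand downstream of RET, had -0.18, -0.14 and 0.047. Its mean of -0.092 ± 0.12 was smaller than its SD (confidence interval from -0.51 to 0.33, limma adjusted p = 0.842). It was -0.048 without array 1, -0.16 without array 3, -0.12 with array 3 turned and 0.038 with the running median taken off. Wnt11 was lower than Ret on every array, by -0.36, -0.34 and -0.48 (mean difference -0.39 ± 0.07), the smallest SD of the 7 differences taken within arrays.

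The ETS factor gene Etv4 (Entrez 18612) had the lowest mean of the set. Its log2 ratios were -0.37, -0.63 and -1.35, all below 0, with array 3 over 1 log2 unit under 0 and the others not. The mean of -0.78 ± 0.51 is a 1.72-fold lower ratio at 11.5 dpc (confidence interval from -1.48 to -0.089, limma adjusted p = 0.534), and 3.80% of all rows had a mean as low or lower. It was -0.50 without array 3, and 0.12 with array 3 turned.

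Its paralog Etv5 (Entrez 104156) had 0.13, 0.26 and -0.42, with array 3 on the other side of 0. The mean was -0.010 ± 0.36 (confidence interval from -0.58 to 0.56, limma adjusted p = 0.987). It was -0.14 without array 2, 0.20 without array 3 and 0.27 with array 3 turned. A second Etv5 feature had no value on any array, as had all 561 blank features, so Etv5 rests on 1 feature like every other member. Etv4 lay below Etv5 on each array, by -0.50, -0.89 and -0.92 (mean difference -0.77 ± 0.24).

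The feedback inhibitor gene Spry1 (Entrez 24063) had -0.65, -0.42 and -0.26. All 3 were below 0, and its mean of -0.44 ± 0.19 kept its sign under every alternative, from -0.53 without array 3 to -0.27 with array 3 turned. The fold was 1.36, with a confidence interval from -0.89 to 0.010 (limma adjusted p = 0.539). Spry2 (Entrez 24064), which encodes a related inhibitor, had 0.0072, -0.16 and -0.26, with array 1 at about 0 (mean -0.14 ± 0.13, confidence interval from -0.56 to 0.28, limma adjusted p = 0.766). The Spry2 mean was -0.21 without array 1, -0.079 without array 3 and 0.033 with array 3 turned. Spry1 minus Spry2 was -0.65, -0.25 and -0.0035, so the paralogs differed on arrays 1 and 2 and hardly at all on array 3 (mean -0.30 ± 0.33).

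Dusp6 (Entrez 67603), the gene of the ERK phosphatase, had -0.36, -0.14 and 0.066. The mean of -0.15 ± 0.22 was smaller than its SD (confidence interval from -0.61 to 0.32, limma adjusted p = 0.773), and it stayed negative under every alternative, between -0.25 without array 3 and -0.038 without array 1 (-0.19 with array 3 turned). Within the set its nearest gene was Wnt11, at a distance of 0.18, but 286 named rows lay within 0.2 of Dusp6 and 394 within 0.2 of Wnt11, so nearness at ratios close to 0 sets no gene apart.

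The 7 differences between members were chosen after their values were seen. In an exact two-sided sign-flip test over 3 arrays each had p = 0.25, the smallest p that this design allows (0.25 also after adjustment over the 7). A difference of the same sign on every array says only that the genes' ratios were unequal there, and turning array 3 turns the difference on that array.

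**Figure D3:**
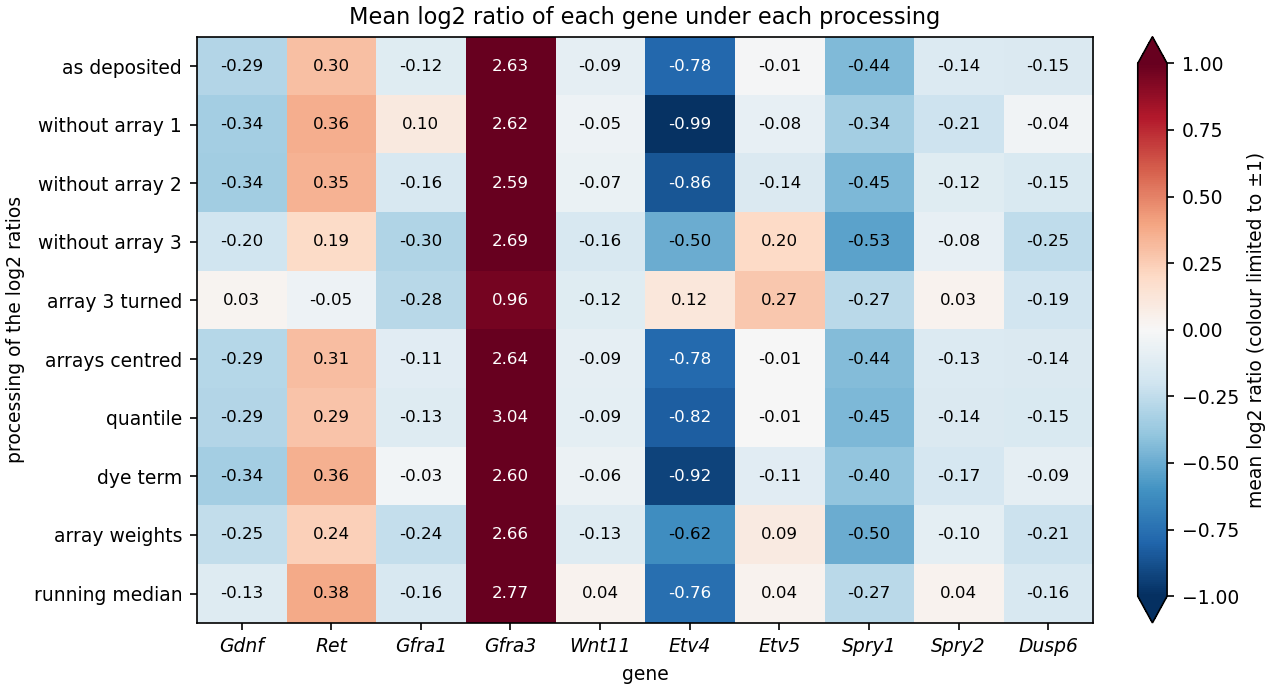
Mean log2 ratio (number and colour, with the colour limited to ±1) of each gene in columns, as deposited and under 9 alternatives in rows. Gfra3, Spry1 and Dusp6 keep their sign in every row, and Gdnf, Ret, Etv4, Etv5 and Spry2 change sign with array 3 turned.

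Genes listed as acting above Gdnf were measured for 22 of 27, and their median log2 ratio was -0.22 (-0.14 with array 3 turned). Whether each of them acts on Gdnf was not tested. Of them 1 was positive and 6 negative on every array, against 16.8% and 18.5% of all rows, and 15 had mixed signs. Limma's adjusted threshold was passed by 0, and 1 was lower at an unadjusted p under 0.05, against 5.07% of all rows. That gene was the paired-box factor gene Pax8, with -0.76, -0.68 and -0.94 (adjusted p = 0.415). Pax2, a related factor needed for Gdnf expression, had -0.81, -0.022 and -1.09. Npnt, which encodes the integrin ligand nephronectin, had -0.73, -2.43 and -0.24, and its mean of -1.13 thus leans on array 2. Wt1 and Sall1, transcription factor genes of the mesenchyme, had means of -0.31 ± 0.20 and -0.21 ± 0.09. The 1 positive gene was Osr1, a factor of the early nephric lineage, with 0.54, 0.26 and 0.47. Those with mixed signs had means on both sides of 0, from -0.70 (Itga8) to 0.30 (Grem1). The lists share genes, so their counts are not independent. Osr1, Pax2, Wt1, Sall1, Eya1, Itga8, Six2, Hoxa11 and Hoxd11 are also in the cap mesenchyme list. Pax8, Pax2 and Gata3 are also in the ureteric epithelium list.

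Of 30 listed genes of RET adaptors and of the ERK and PI3K cascades, 20 were measured, and they centred close to 0 (median -0.040, or -0.066 with array 3 turned). Of them 2 were positive and 6 negative on every array, against 16.8% and 18.5% of all rows, and 12 had mixed signs. At an unadjusted limma p under 0.05 there were 0, against 9.24% of all rows, and 0 passed the adjusted threshold. The adaptor genes Dok4 and Gab1 had -0.31 ± 0.12 and -0.18 ± 0.12, and the RAS exchange factor gene Sos1 had -0.28 ± 0.12. Grb2 had -0.032, -0.017 and -0.62, and Gab2 had -0.16, -2.91 and -0.095, so 1 array set each of these means. The PI3K subunit gene Pik3ca had 0.17 ± 0.17.

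Other genes listed as of the bud tip or dependent on RET were measured for 12 of 18. Whether each of them is either was not tested. Their median was -0.15 (-0.045 with array 3 turned). Of them 1 was positive and 6 negative on every array, against 16.8% and 18.5% of all rows. Limma's adjusted threshold was passed by 0, and 2 were lower at an unadjusted p under 0.05, against 5.07% of all rows. The chemokine receptor gene Cxcr4 had -1.13, -0.68 and -0.74 (mean -0.85 ± 0.24, limma adjusted p = 0.428), and the cyclin gene Ccnd1 had -0.53, -0.60 and -0.68 (mean -0.60 ± 0.07, limma adjusted p = 0.488). The bud epithelial factor gene Emx2 had -0.48 ± 0.25 and the tip factor gene Sox9 had -0.28 ± 0.06. Myb had -0.65 ± 0.53 and the protease gene Mmp14 had -0.22 ± 0.19. These 6 were named for their 1 sign. Of the other 6 measured, Etv1, an ETS relative of Etv4, was positive on every array (mean 0.17 ± 0.16), and the rest had mixed signs and means from -0.079 (Met) to 0.10 (Tmem59l).

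Genes listed as other feedback inhibitors of receptor tyrosine kinases were measured for 14 of 21. Whether each of them acts on the RET signal was not tested. Their median was 0.049 but their mean -0.22, and the per-array medians were -0.070, -0.12 and -0.063, so the sign of the group depends on how it is summarised (median -0.055 with array 3 turned). None was positive and 5 were negative on every array, against 16.8% and 18.5% of all rows. Limma's adjusted threshold was passed by 0, and 2 were lower at an unadjusted p under 0.05, against 5.07% of all rows. The phosphatase gene Dusp10 had -0.60, -0.49 and -0.56, and Lrig1, a receptor inhibitor, had -0.90, -3.65 and -1.85. Dusp1 had -0.42 ± 0.32, the RAS inhibitor gene Rasa1 had -0.26 ± 0.04 and the sprouty-related gene Spred1 had -0.29 ± 0.28. Spry4 and Dusp4, relatives of the members named after their values were seen, had 0.075 ± 0.13 and 0.040 ± 0.18.

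**Figure D4:**
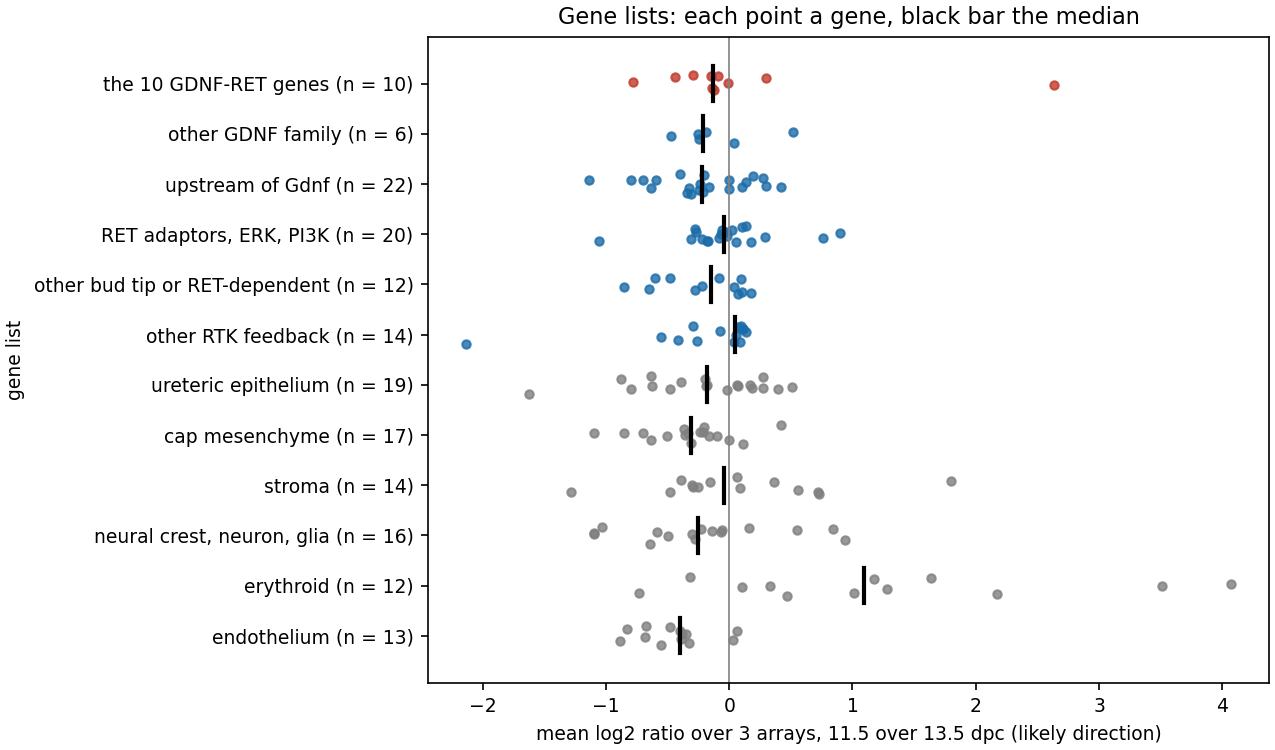
Mean log2 ratio over 3 arrays of each measured gene (points) in the set of 10 (red), in 5 lists of related pathway genes (blue) and in 6 lists of cell type markers (grey), with the median as a black bar; the 10 genes are left out of the other lists. Medians lie between -0.40 (endothelium) and 0.049 (receptor feedback), other than that of the erythroid list at 1.09.

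Markers of the tissues that make or receive the signal, and of endothelium, were read by the same measure. Of 17 measured cap mesenchyme markers, the cells that secrete GDNF, 1 was positive and 9 negative on every array, against 16.8% and 18.5% of all rows. Their median was -0.31, with means from -1.10 (Meox2) to 0.42 (Osr1). Gdnf itself, at -0.29, lay close to that median. Of 19 measured ureteric epithelium markers, the cells that carry RET, 2 were positive and 8 negative on every array (median -0.18), from Cdh16 at -1.63 to Upk3a at 0.51; Ret, at 0.30, lay above that median and Wnt11, at -0.092, near it. Of 13 endothelial markers 0 were positive and 10 negative on every array (median -0.40), from Cldn5 at -0.89 to Kdr at 0.063. With array 3 turned these medians were -0.15 (cap mesenchyme), -0.041 (ureteric epithelium) and -0.14 (endothelium). Several cap mesenchyme and ureteric markers were also in the list above Gdnf, and Emx2 and Wnt9b in that of bud tip or RET-dependent genes. These lists are thus not separate groups. The part of these cell types in the ratios of Gdnf, Ret, Wnt11, Etv4 or Spry1 was not tested.

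The genes nearest to each other member over the 3 arrays were as follows, with distances on the log2 scale. Gdnf was nearest to the mesenchymal factor gene Tcf21 (0.038), then to Nefm and Aurka (both 0.057). Ret was nearest to Rnf139 (0.047), Ece2 (0.050) and Taf5l (0.075), and Gfra1 to Tac2 (0.061), Pi16 (0.092) and Sf3b5 (0.094). Spry1 was nearest to Hs2st1, a heparan sulfate enzyme gene (0.040), Actn2 (0.046) and Xbp1 (0.057). Etv4 had fewer close neighbours, 9 named rows within 0.2, the nearest being Procr (0.12), Blnk (0.14) and Dop1b (0.14). Wnt11 was nearest to Ccdc88a (0.021), Drg1 (0.024) and Sptssa (0.028), and Etv5 to Rusc1 (0.023), Foxf1 (0.031) and Tdrp (0.034). Spry2 was nearest to Nxph3 (0.037), 4930484H19Rik (0.041) and Ing4 (0.047), and Dusp6 to Zfp36 (0.020), Zfp563 (0.028) and 4930596I21Rik (0.040). Counts of named rows within 0.2 ran from 0 for Gfra3 to 404 for Spry2.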

How the data were processed

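Per the labels, ImaGene 5.5 quantified the images. The deposited values are log2 ratios: 2 raised to each value between -3 and 2 was a whole multiple of 0.001, within 0.02 of that step, for 100% of values. The labels carry 2 accounts of the authors' normalisation, print-tip loess followed by a step between arrays in R, or Lowess through 20% of the data with the control channel floored at 10; the account that applies to these log2 ratios is not stated. Spot brightness was not analysed here, so rows were not filtered on it and dim spots could not be told from bright ones.

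Of 22702 features, 883 controls or blanks were left out. Features of 1 symbol on all 3 arrays were averaged. limma 3.58.1 in R 4.3.3 tested each mean against 0. The fit was also run on values shuffled within each array, with changes added to some rows. That shuffling removes any relation between arrays, so the run does not show what the test can call in the real data. The number of arrays limits the precision. Alternatives left out or turned arrays, rescaled, weighted or centred them, added a dye term (1 residual degree of freedom), subtracted a running median over 401 library neighbours, and used single features or features on 2 arrays. Named genes were the members, up to 6 genes of each pathway list with 1 sign on every array and the smallest p, all other GDNF family genes, the lowest and highest marker of each cell type list, and the 3 nearest rows of each member. Some further genes of the lists were named after their values were seen. The members and lists were chosen with earlier results of these data known. Upstream sequences are RefSeq's; 7 of the 10 members matched.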

Additional observations from a re-analysis of the deposited data

How the results depend on the processing

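Limma passed 0 rows under every alternative. With an unadjusted p under 0.05 there were 1757 rows, 736 to 2346 with 1 array left out and 2669 with a dye term. Rows past 2-fold on each array numbered 130, and 266 to 341 with 1 array left out, when only 2 arrays are asked, 42 with array 3 turned, 479 at 1.5-fold and 28 at 3-fold. Members with 1 sign on every array numbered 5, and 5 to 9 with 1 array left out; the 9 came without array 3. The median of the members, -0.13, ran from -0.18 without array 3 to -0.065 without array 1, and was -0.012 with array 3 turned and -0.047 with the running median. Turning array 3 gave the opposite sign to Gdnf (0.026), Ret (-0.050), Etv4 (0.12), Etv5 (0.27) and Spry2 (0.033). The running median did so for Wnt11 (0.038), Etv5 (0.035) and Spry2 (0.037), and weighting arrays for Etv5 (0.089). With 1 array left out, Gfra1 ran from -0.30 to 0.10, positive without array 1, and Etv5 from -0.14 to 0.20, positive without array 3. The cause of these changes was not tested. Gfra3, Spry1 and Dusp6 kept their sign throughout. For Gfra3 and Spry1, with 1 sign on every array, leaving an array out could not have turned the mean. Turning array 3 could not either, since arrays 1 and 2 together outweigh it for both genes. Each member rests on 1 feature, so using single features or features on 2 arrays left every member's mean as it was. Dusp6 had mixed signs and a mean smaller than its SD, so its kept sign says little. Each ratio is already a pair within 1 array, so no further pairing was fitted. Signal over background could not be assessed.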

Other observations

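Genes of the kidney stroma, which surrounds the cap mesenchyme, had ratios on both sides of 0. Of 14 measured markers 5 were positive and 6 negative on every array, against 16.8% and 18.5% of all rows. They had a median of -0.045 (-0.031 with array 3 turned) and a mean of 0.084. The genes named here were chosen after their values were seen. The progenitor factor genes Foxd1 (0.73, 1.07 and 0.35 on arrays 1, 2 and 3) and Meis1 (0.73, 0.87 and 0.59) were positive on every array, while Tcf21 (-0.23, -0.16 and -0.48) was negative. The matrix genes Dcn (-0.27, -2.22 and -1.35) and Col1a1 (-0.47, -0.29 and -0.68) were negative on every array, while Col3a1 had mixed signs (0.040, -0.047 and 0.20). The highest mean, that of Pdgfrb at 1.80, came from array 3 (4.53, against 0.39 and 0.49 on arrays 1 and 2).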
